A study of Temnothorax rugatulus with 32 samples.

Results

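Cytochrome P450 monooxygenases were followed in 2 tissues, brain and fat body, of old and young queens of the ant Temnothorax rugatulus through 10 assembled transcripts (contigs) of 228763 in all, 7 described as cytochrome P450 9e2-like and 1 each as cytochrome P450 6k1-like, cytochrome P450 4c3-like and cytochrome P450 CYP12A2-like. The study sequenced RNA from 16 field-collected queens, 8 labelled old and 8 labelled young, with both tissues taken from each queen, which gave 32 libraries in 4 groups of 8: old brain, young brain, old fat body and young fat body. The labels give the age class of a queen but no age in years, no colony and no treatment. A difference of colony between the classes therefore cannot be judged, and the age comparison is one of different animals. Libraries held between 13861667 and 33461227 counts.

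The contigs were chosen by their description, which is the best protein match that the authors gave for contigs listed in their 2 deposited tables of age differences. Of 1073 described contigs, 11 were described as a cytochrome P450, and 10 of these had an ant protein as the match. A limit of 10 contigs by total count was set but left none out. The remaining one matched an octopus protein named cytochrome P450 4F22-like and had 26 counts in all 32 libraries, against 266 for the least abundant ant match. Because a contig had to be listed for an age difference before it could carry a description, the age difference in the tissue of that list chose it. Contigs 9e2-like A to E were listed for age in the brain, and 9e2-like F, 9e2-like G, 6k1-like, 4c3-like and 12A2-like for age in the fat body, with none in both lists. In the authors' deposited table for the brain, the adjusted p-values of these contigs ran from 0.000909 for 9e2-like C to 0.0446 for 9e2-like D. In the fat body list of the authors' deposited tables they ran from 0.00118 for 4c3-like to 0.0307 for 12A2-like. Age differences in the listing tissue are therefore given below as descriptions, without a test. Tests were made for the tissue difference and for age in the other tissue.

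Cytochrome P450 enzymes hold a haem group, take electrons from NADPH through a partner protein and insert an oxygen atom into fatty acids, steroids, hormones, pheromones or foreign compounds. In insects, families 6 and 9 are best known for the oxidation of plant toxins and insecticides, family 4 for fatty acid and hydrocarbon metabolism, and family 12 for enzymes located in mitochondria rather than the endoplasmic reticulum. The fat body is the insect organ that combines the storage and detoxification tasks of liver and adipose tissue. P450 enzymes are also expressed in insect nervous and sensory tissue.

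The 10 contigs cover families 4, 6, 9 and 12 very unequally. Family 9 was represented by 7 contigs, all described as 9e2-like, and the other families by 1 contig each. The 7 family 9 contigs matched 4 different proteins and lay in 5 assembly components, a component being the set of contigs whose identifiers differ only in the isoform number. Contigs 9e2-like A (TR75872c6_g1_i1, 3932 bases), B (TR75872c6_g1_i4, 1366 bases) and C (TR75872c6_g1_i2, 3929 bases) were isoforms of 1 component and shared their best match with 9e2-like D (TR64789c0_g1_i7, 756 bases), so these 4 are not 4 independent genes. 9e2-like E was TR71642c1_g1_i1 (637 bases), 9e2-like F was TR76619c2_g4_i1 (486 bases) and 9e2-like G was TR76619c2_g2_i6 (822 bases). The family 6 contig, 6k1-like, was TR74961c5_g1_i2 (2022 bases). The family 4 contig, 4c3-like, was TR76092c1_g1_i1 (858 bases) and matched a protein marked as partial. The family 12 contig, 12A2-like, was TR64575c0_g1_i1 (4157 bases). Of the 10 matches, 7 were proteins of the ant Vollenhovia emeryi, so the names are those of the nearest database protein and not of established Temnothorax genes.

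The tissue labels were checked against marker genes among the described contigs. Complexin, a synaptic protein, had a median of 135 CPM (counts per 1000000) in young brains, against 0.964 in old and 0.336 in young fat bodies. A nicotinic acetylcholine receptor subunit was at a median of 0 in both fat body groups. The third matched neuron marker, neuroligin-1-like, did not separate the tissues, with medians of 118 and 139 CPM in old and young brains and 111 and 183 CPM in old and young fat bodies. The 3 matched fat body markers, 2 transferrin contigs and protein henna, summed to between 1069 and 8391 CPM in old fat bodies but between 70.2 and 2664 in young ones, so young fat bodies overlapped the brains (116 to 454 CPM) in this sum. All CPM values here are scaled with trimmed means (TMM) over the 32 libraries, a scaling that sets most contigs level between libraries. Its factors were 1.34 to 1.58 in brains and 0.578 to 0.956 in fat bodies, so fat body values lie higher on this scale than when divided by library totals. In these whole-tissue samples, fewer cells of a type and less RNA per cell cannot be told apart.

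Whether the P450 contigs differed between the tissues was tested with edgeR's quasi-likelihood test, fat body minus brain, within each age class. This main test did not use the pairing of the tissues by queen. A paired fit, with each queen as a replicate block, called 9e2-like A and B in old queens. It lost the calls of 12A2-like in young and 9e2-like G in old queens, as given below. A contig needed counts in a tissue to be listed for age there, so its tissue direction may follow in part from the listing. Contigs listed for the brain all lay lower in the fat body, and those listed for the fat body all lay higher, except 9e2-like G. 6k1-like and 9e2-like F were far higher in the fat body in both age classes, and 12A2-like in old queens. 9e2-like G was higher in the brain in both classes and 9e2-like A, B and C in young queens, while A, B and C were not called in old queens. A to D had been chosen for a lower level in old brains. In old queens the ratios of medians, fat body over brain, were 0.303 for A, 0.176 for B and 0.275 for C. In young queens they were 0.422, 0.369 and 0.337. For D the ratio was 0.455 in old and 0.283 in young queens. 6k1-like and 12A2-like were chosen for a higher level in old fat bodies, and F, G and 4c3-like for a lower one. Contrasts between the classes follow in part from these choices and were not tested. 4c3-like had nearly all of its counts in the fat body and 9e2-like E in the brain. In young queens 9 of the 10 contigs could be tested and 8 were called at an adjusted p under 0.05, 4 higher in the fat body and 4 higher in the brain. Of all 35113 contigs tested there, 57.0% were called, 23.0% higher in the fat body and 34.0% higher in the brain. In old queens 9 were tested and 5 called, 3 higher in the fat body and 2 higher in the brain, beside 55.8% of 34574 contigs called, 26.1% and 29.7%. 4c3-like in young queens entered the test through 7 fat bodies and only 2 brains over the count limit, and 9e2-like E in old queens through 8 brains and no fat body, so these contigs had to differ and the counts of calls are given as a description. For these 2 contigs the summed counts are given below in place of the fitted test.

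**Figure D1:**
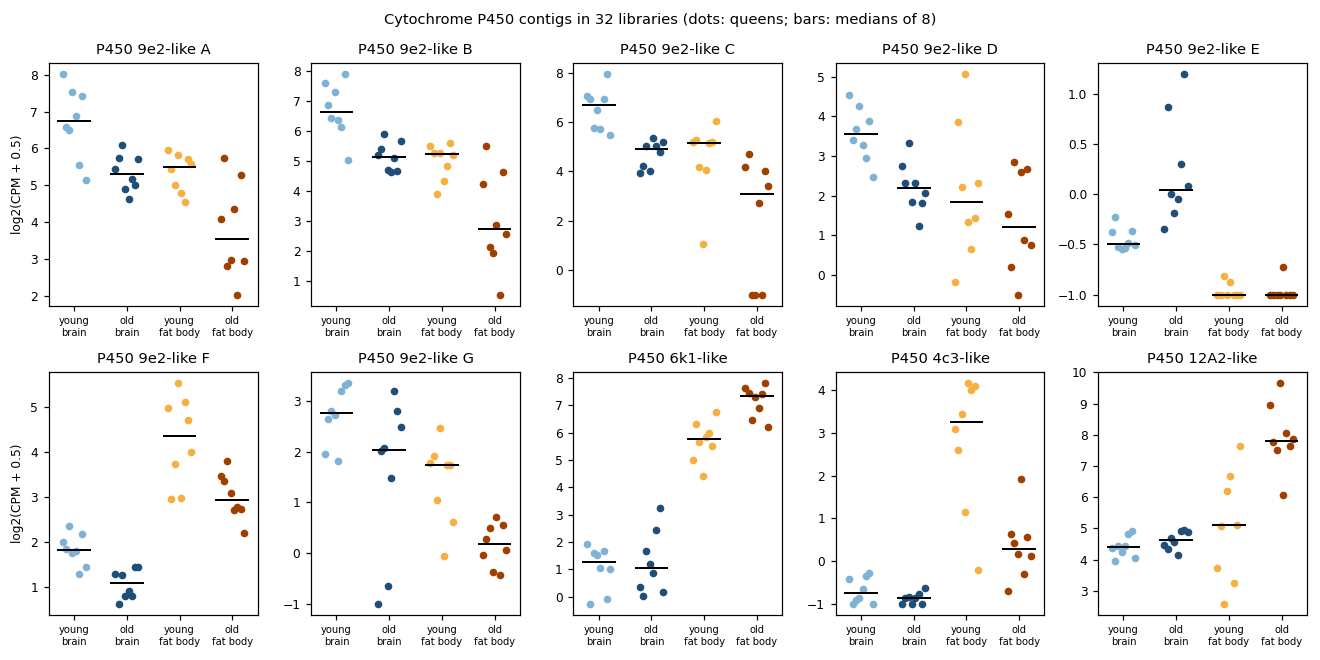
Level of each of the 10 cytochrome P450 contigs in the 4 groups, as log2(CPM + 0.5) on the vertical axis of each panel; each dot is 1 library of 1 queen and each bar the median of 8. 6k1-like lies without overlap between the tissues, while 9e2-like A to C are highest in young brains and lowest in old fat bodies.

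The family 6 contig was far higher in the fat body in both age classes. 6k1-like ran from 20.7 to 108 CPM in young fat bodies with a median of 53.7, and from 0.333 to 3.27 CPM in young brains with a median of 1.97. In old queens it ran from 73.6 to 225 CPM in fat bodies with a median of 164, and from 0.501 to 9.08 in brains with a median of 1.56. Every fat body lay above every brain of its age class, as 35.9% of contigs tested in young queens and 33.0% in old queens did in one direction or the other. The difference was 4.98 ± 0.51 on the log2 scale (SE, adjusted p = 4.1e-07, edgeR quasi-likelihood test) in young queens and 5.99 ± 0.64 (adjusted p = 9.5e-07) in old queens. Fat body exceeded brain in 8 of 8 queens of each class. The component held 2 further contigs without a description. Contig TR74961c5_g1_i1 behaved alike, with 5.27 ± 0.40 in young and 6.95 ± 0.97 in old queens on the log2 scale, while TR74961c5_g1_i3 was at 2.27 ± 1.55 (adjusted p = 0.229, edgeR) and 0.96 ± 1.01 (adjusted p = 0.45).

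Family 4 was almost restricted to fat body reads, at a low level. 4c3-like had 1616 counts over the 8 young fat bodies and 41 over the 8 young brains, 2 of which had none. Its level ran from 0.365 to 17.5 CPM in young fat bodies with a median of 9.18, and from 0 to 0.325 in young brains with a median of 0.0945. The ratio of the summed, scaled counts was 78.5 with a 95% exact interval of 57.6 to 110 that covers counting error only. In old queens 4c3-like was below the count limit of the test. It ran from 0.117 to 3.27 CPM in old fat bodies with a median of 0.730, and had 11 counts in all over the old brains, with a median of 0.0487 CPM, a highest value of 0.150 CPM and 3 brains at 0. A count of 0 allows up to 0.0786 to 0.0816 CPM in those brains. The ratio of summed counts in old queens was 23.6, with an interval of 12.8 to 48.5. Fat body exceeded brain in 8 of 8 queens of either class.

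Family 12 was higher in the fat body of old queens, and its difference in young queens depended on the fit. The contig was chosen for a higher level in old than in young fat bodies, so a larger tissue difference in old queens follows in part from that choice, and the difference between the classes was not tested. 12A2-like had a narrow range in brains, 17.4 to 30.5 CPM in old and 15 to 29.5 in young queens, with medians of 24.3 and 20.6. Old fat bodies ran from 66.8 to 805 CPM with a median of 224, above every old brain. Young fat bodies ran from 5.51 to 200 CPM with a median of 33.8, so they lay both below and above the brains. The difference was 3.84 ± 0.40 on the log2 scale (adjusted p = 7.8e-07, edgeR) in old queens, where fat body exceeded brain in 8 of 8. In young queens it was 1.51 ± 0.59 (adjusted p = 0.038), with fat body higher in 5 of 8. The young call was lost with each queen as a replicate block in the paired fit (0.66, adjusted p = 0.437), with library totals as the only scaling (0.53, adjusted p = 0.422), with DESeq2 (adjusted p = 0.0502), without a count filter (adjusted p = 0.0702) and without any of 4 queens, Y-134, Y-361, Y-453 or Y-651 (adjusted p from 0.0635 to 0.204). Without Y-651 the log2 difference was 0.86.

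The family 9 contigs did not share a direction between the tissues. 9e2-like A ran from 35.1 to 259 CPM in young brains with a median of 107, and from 22.8 to 61.6 in young fat bodies with a median of 45.0. 9e2-like B ran from 32.6 to 237 CPM in young brains with a median of 101, and from 14.5 to 48.2 in young fat bodies with a median of 37.2. 9e2-like C ran from 43.4 to 245 CPM in young brains with a median of 104, and from 1.56 to 65.4 in young fat bodies with a median of 35.2. The tissues overlapped for each isoform, but all 8 young fat bodies lay below the median of the young brains and 7 of 8 queens had more in the brain. The young differences were -1.52 ± 0.37 for A (adjusted p = 0.00196), -1.82 ± 0.36 for B (adjusted p = 0.000359) and -1.77 ± 0.53 for C (adjusted p = 0.00853) on the log2 scale in edgeR's test. The call of C was lost when all 32 libraries were fitted together (adjusted p = 0.0667).

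In old queens no tissue difference of these 3 isoforms was called. 9e2-like A ran from 24.4 to 67.7 CPM in old brains (median 39.4), and from 3.60 to 52.7 in old fat bodies with a median of 12. 9e2-like B ran from 24.3 to 59.5 CPM in old brains (median 35), and from 0.976 to 45 in old fat bodies with a median of 6.16. 9e2-like C had medians of 29.4 CPM in old brains and 8.08 in old fat bodies, and no old fat body reached the old brain median. C was at 0 in 3 old fat bodies, where a count of 0 allows up to 0.183 to 0.204 CPM, while A and B had counts in all of them. The old differences were -0.94 ± 0.49 for A (adjusted p = 0.114), -1.24 ± 0.59 for B (adjusted p = 0.087) and -1.32 ± 1.02 for C (adjusted p = 0.292) in edgeR's test. With each queen as a replicate block, A was at -1.41 (adjusted p = 0.0406) and B at -2.0 (adjusted p = 0.0255), both past the threshold, as they also were with all 32 libraries fitted together (-1.15 with an adjusted p of 0.0286 and -1.45 with 0.0154). Without queen O-269, which had the highest old fat body value of both, A was at -1.30 (adjusted p = 0.0304) and B at -1.79 (adjusted p = 0.0163). Because reads of 1 component are shared out among its isoforms, the counts of the whole component were also summed. The sum differed by -1.57 ± 0.31 in young queens (adjusted p = 0.000252, edgeR) and by -1.09 ± 0.50 in old queens (adjusted p = 0.0591).

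9e2-like F went the other way. It ran from 7.33 to 45.9 CPM in young fat bodies with a median of 20.7, against 1.96 to 4.60 in young brains with a median of 3.06. In old queens it ran from 4.11 to 13.6 CPM in fat bodies with a median of 7.19, against 1.05 to 2.25 in brains with a median of 1.65. No fat body overlapped a brain of its age class on this scale, although they overlapped when divided by library totals. The differences were 2.86 ± 0.39 (adjusted p = 8.2e-06, edgeR) in young and 2.48 ± 0.29 (adjusted p = 1.8e-06) in old queens on the log2 scale.

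9e2-like G, which lies in the same assembly cluster as F but in another component, was lower in the fat body. It ran from 0.456 to 5.03 CPM in young fat bodies with a median of 2.84, against 3.01 to 9.69 in young brains with a median of 6.29. In old queens its fat body median was 0.629 CPM with a highest value of 1.13, while old brains ran from 0 to 8.67 with a median of 3.61. The young difference was -1.36 ± 0.42 on the log2 scale (adjusted p = 0.0102, edgeR; 0.0734 with all 32 libraries fitted together), with brain higher in 8 of 8 queens. The old difference was -2.29 ± 0.83 (adjusted p = 0.0266), with brain higher in 6 of 8. With each queen as a replicate block the old value was -1.55 (adjusted p = 0.222), and without any of O-269, O-603, O-796 or O-829 the adjusted p was 0.0527 to 0.0919. One old brain had no count of G.

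9e2-like D and E complete the family. D ran from 5.0 to 22.9 CPM in young brains with a median of 11.2, and from 0.378 to 33.1 in young fat bodies with a median of 3.18. In old queens its medians were 4.10 CPM in brains and 1.87 in fat bodies, with ranges of 1.86 to 9.59 and 0.204 to 6.65. Neither tissue difference was called (-0.67 ± 0.70, adjusted p = 0.445 in young and -0.41 ± 0.58, adjusted p = 0.584 in old queens, edgeR). E was the scarcest contig. It ran from 0.288 to 1.79 CPM in old brains (median 0.530), and from 0.183 to 0.356 in young brains with a median of 0.209. It was at 0 in 7 of 8 old and 6 of 8 young fat bodies, where a count of 0 allows up to 0.11 to 0.219 CPM. In old queens 188 counts stood in brains against 2 in fat bodies, a ratio of 48.5 after scaling (95% exact interval 13.2 to 403, counting error only). In young queens 74 counts stood against 2, a ratio of 18.6 (interval 4.97 to 156), with no test because E was below the count limit.

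**Figure D2:**
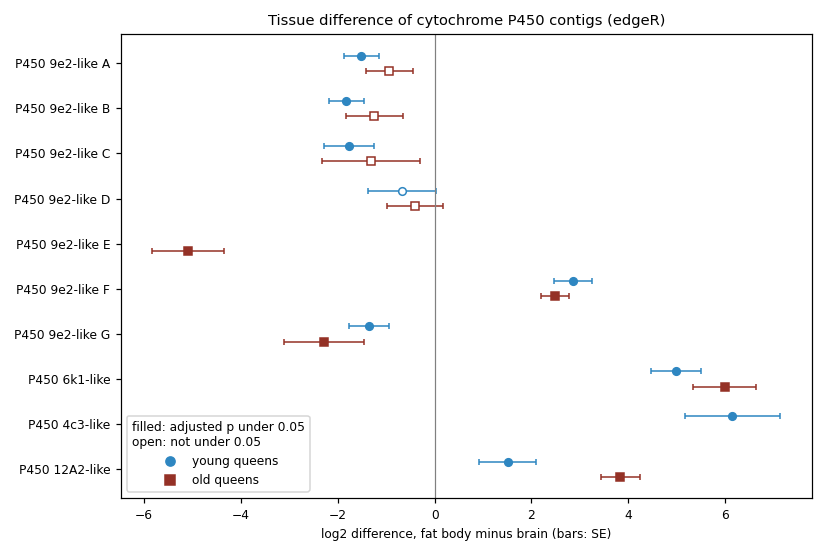
Difference between fat body and brain on the log2 scale (horizontal axis, bars are standard errors) for each P450 contig (rows), in young queens (circles) and old queens (squares). Filled symbols have an adjusted p under 0.05 (4c3-like and 9e2-like E entered the test mainly or only through the tissue where they are high); 6k1-like, 9e2-like F and 12A2-like lie to the right in both classes and the other 9e2-like contigs to the left.

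The scaling bears on every tissue value. With library totals alone the median difference of all tested contigs moved by -0.88 in young and -1.41 in old queens on the log2 scale, and the calls split into 4309 higher and 17806 lower in the fat body in young queens, in place of 8073 and 11953. In old queens the split was 3532 and 20234, in place of 9035 and 10265. No P450 contig tested changed its direction, and in old queens all 9 contigs tested were then called, beside 68.7% of all contigs.

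The component of a P450 contig did not always share its tissue pattern. Contig 9e2-like G held 2.99% of the counts of a component of 13 contigs. Of the 13 tested in young queens, 10 were called higher in the fat body and G alone was called higher in the brain, and in old queens 10 of 12 were called higher and again G alone was lower. The summed component was at 1.12 ± 0.20 in young and 1.06 ± 0.20 in old queens, the reverse of G. Contig 9e2-like D held 21.8% of the counts of a component of 7. There TR64789c0_g1_i2 was at 5.18 ± 0.69 in young and 6.45 ± 0.88 in old queens and TR64789c0_g1_i4 at 1.81 ± 0.45 and 2.98 ± 0.31, while TR64789c0_g1_i3 was at -2.0 ± 0.58 and -2.11 ± 0.51, all with adjusted p under 0.05 in edgeR's test. TR64789c0_g1_i1 and TR64789c0_g1_i5 were lower in the fat body of old queens, at -2.18 ± 0.38 and -1.90 ± 0.58 (adjusted p = 0.000128 and 0.0101, edgeR), and were not called in young queens. Of the 6 contigs tested in old queens, 2 were called higher and 3 lower in the fat body. The sum of that component was at 0.25 ± 0.38 (adjusted p = 0.582) in young and 0.97 ± 0.29 (adjusted p = 0.00652) in old queens. The contigs of these components that carry no description are not named as P450 transcripts here.

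**Figure D3:**
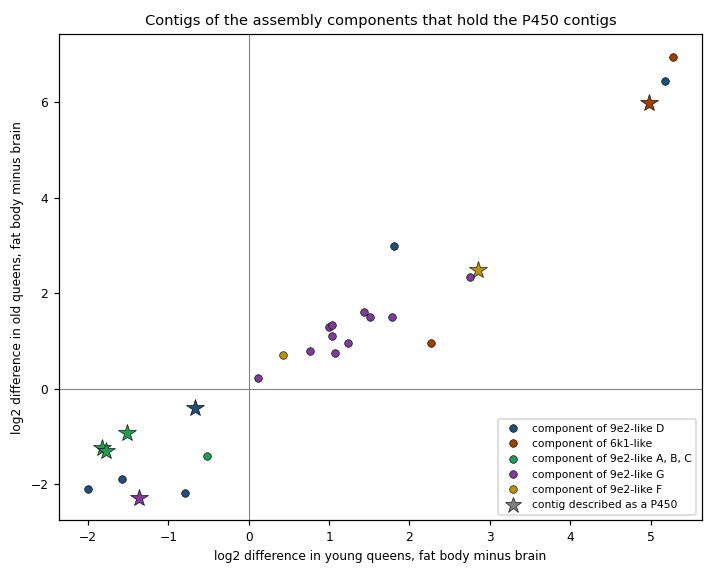
Difference between fat body and brain in young queens (horizontal axis) and old queens (vertical axis), both on the log2 scale, for each tested contig of 5 assembly components (colours); stars are the contigs described as cytochrome P450. The star of 9e2-like G lies at -1.36 and -2.29 while the other contigs of its component lie above 0.

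Levels were compared between contigs per kilobase of contig, as CPM per kb. In old fat bodies the highest median was that of 6k1-like (81.2), followed by 12A2-like (54.0) and 9e2-like F (14.8). In young fat bodies the order was 9e2-like F (42.5), 9e2-like B (27.2), 6k1-like (26.5), 9e2-like A (11.4) and 4c3-like (10.7), with 12A2-like at 8.13. In young brains 9e2-like B led (73.7), with 9e2-like A (27.1) and C (26.5) next, and 6k1-like stood at 0.974. In old brains 9e2-like B again led (25.6), followed by A (10.0) and C (7.48). These contig levels depend on how reads were shared among isoforms.

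Among the 4 groups, 9e2-like A, B and C had the same order of medians: young brain, young fat body, old brain, old fat body. Each neighbouring pair in that order overlapped. 6k1-like and 12A2-like were both highest in old fat bodies and next in young fat bodies, groups that overlapped for both contigs. 9e2-like F and 4c3-like were highest in young fat bodies and next in old ones, also with overlap. 9e2-like D and G were highest in young brains and 9e2-like E in old brains.

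The age differences that led to the listing ran in both directions. In the fat body, 12A2-like was 2.38 ± 0.69 higher and 6k1-like 1.41 ± 0.31 higher in old queens on the log2 scale, and in each case all 8 old fat bodies lay above the median of the young ones. 4c3-like was at -3.25 ± 0.74, 9e2-like F at -1.48 ± 0.39 and 9e2-like G at -1.90 ± 0.47, with all 8 old fat bodies below the young median. In the brain, 9e2-like A was at -1.54 ± 0.36, B at -1.67 ± 0.34, C at -1.94 ± 0.35 and D at -1.42 ± 0.35. All 8 old brains were below the median of the young brains for each, and for C no old brain overlapped a young one, which held for 0.0518% of all contigs tested. 9e2-like E was at 1.71 ± 0.38, and all 8 old brains exceeded the young median. The summed component of A to C was at -1.68 ± 0.30, while that of G was at -0.32 ± 0.19 in the fat body, that of D at -0.96 ± 0.27 in the brain and that of E at 0.52 ± 0.34. These values chose the contigs and support nothing.

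In the tissue that did not choose them, no P450 contig passed the adjusted threshold for age. Of the 5 contigs listed for the fat body, 4 could be tested in the brain, and 0 were called, where edgeR called 0% of 40572 contigs. 1 of the 4 had an unadjusted p under 0.05, as did 1882 contigs or 4.64% of all tested. That contig was 9e2-like F, at -0.90 ± 0.23 (adjusted p = 0.621, edgeR), with all 8 old brains below the median of the young ones. DESeq2, which called 623 contigs or 0.298%, gave F an adjusted p of 0.0332. 9e2-like G was at -0.75 ± 0.76, 6k1-like at 0.62 ± 0.63 and 12A2-like at 0.26 ± 0.16, each with an adjusted p of 0.99983 in edgeR's test. 4c3-like was below the count limit in the brain.

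Of the 5 contigs listed for the brain, 4 could be tested in the fat body and 0 were called, where edgeR called 0.647% of 27664 contigs, 179 in all. Each of the 4 values was lower in old queens. 9e2-like A was at -1.16 ± 0.49 (unadjusted p = 0.0292, adjusted p = 0.296, edgeR), B at -1.31 ± 0.60 (unadjusted p = 0.0435, adjusted p = 0.355), C at -1.71 ± 1.10 (adjusted p = 0.567) and D at -1.34 ± 0.85 (adjusted p = 0.561). An unadjusted p under 0.05 was found for 13.3% of all contigs tested there. The summed component of A to C was at -1.41 ± 0.50 (adjusted p = 0.112). DESeq2 called 1234 contigs in the fat body, 0.659%, but none of these 4. The tissues come from the same queens, so age in the second tissue is not an independent repeat of age in the first.

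**Figure D4:**
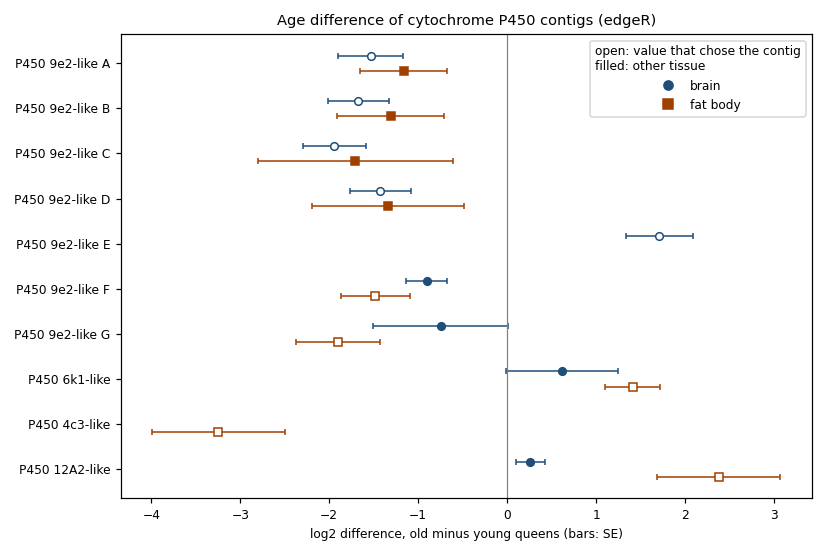
Difference between old and young queens on the log2 scale (horizontal axis, bars are standard errors) for each P450 contig (rows), in the brain (circles) and the fat body (squares). Open symbols are the values that chose the contig and filled ones those of the other tissue; the filled symbols of 9e2-like A to D lie between -1.71 and -1.16 and that of 9e2-like F at -0.90.

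Markers of other cell types were sought only among contigs that the authors had listed for age. Their age differences in the fat body therefore follow in part from that choice and are given as a description. The 13 contigs matched as gut or Malpighian tubule markers, digestive enzymes among them, summed to 546 to 2783 CPM in old fat bodies. The sum was 310 to 867 CPM in young fat bodies and 132 to 172 in brains. Of the 13, 9 had higher and 4 lower medians in old than in young fat bodies. The list includes an antichymotrypsin-like inhibitor caught by its name. Much of the brain sum came from methionine aminopeptidase 1 (medians of 40.5 CPM in old and 44.2 in young brains) and a lysosomal alpha-glucosidase (39.5 and 43.6). Of the 13 contigs, 1 had a median of 0 in old and 3 in young fat bodies. Further lists, of 14 oenocyte contigs and 1 haemocyte contig, were at 62.8 to 259 CPM in old and 137 to 705 in young fat bodies, and at 225 to 456 and 97.1 to 241. Of the oenocyte contigs, 0 had a median of 0 in old and 4 in young fat bodies. Their lower sum in old fat bodies came from 3 contigs, while the other 11 of the 14 had higher medians in old than in young fat bodies. The fat body markers themselves, 4717 CPM in old and 256 in young fat bodies at the median for transferrin, moved in the direction of 6k1-like and 12A2-like. The summed neuron contigs had a median of 114 CPM in old and 184 in young fat bodies. Nearly all of it was neuroligin-1-like (111 and 183 CPM), which did not separate the tissues. Complexin went the other way (0.964 and 0.336 CPM), and the acetylcholine receptor subunit was at a median of 0 in both. The glia contig was at 26.8 CPM in old and 37.4 in young fat bodies. The 4 contigs matched as muscle markers summed to 25.5 and 40.7 CPM, and 2 were higher and 2 lower in old fat bodies. Most of that sum was a chromatin regulator caught by the word actin (21.0 and 31.1 CPM). Tropomyosin-1 was at 2.53 and 13.0 CPM and troponin C at 0.166 and 0.132. The photoreceptor contig was at 0.400 CPM in old and 0.985 in young fat bodies. The part of these cell types in the P450 values was not tested.

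The change from brain to fat body was also taken within each queen, on the log2(CPM + 0.5) scale. For 9e2-like C it ran from -5.43 to 0.59 in young and from -6.03 to 0.50 in old queens. For 12A2-like it ran from -1.84 to 3.59 in young queens and from 1.91 to 5.09 in old queens. For 6k1-like it ran from 2.88 to 6.59 in young and from 4.56 to 7.44 in old queens. For 9e2-like A it ran from -2.09 to 0.42 in young and from -3.28 to 0.29 in old queens, with 1 queen of each class higher in the fat body. For 9e2-like F it was above 0 in all 16 queens, from 0.75 to 3.83.

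**Figure D5:**
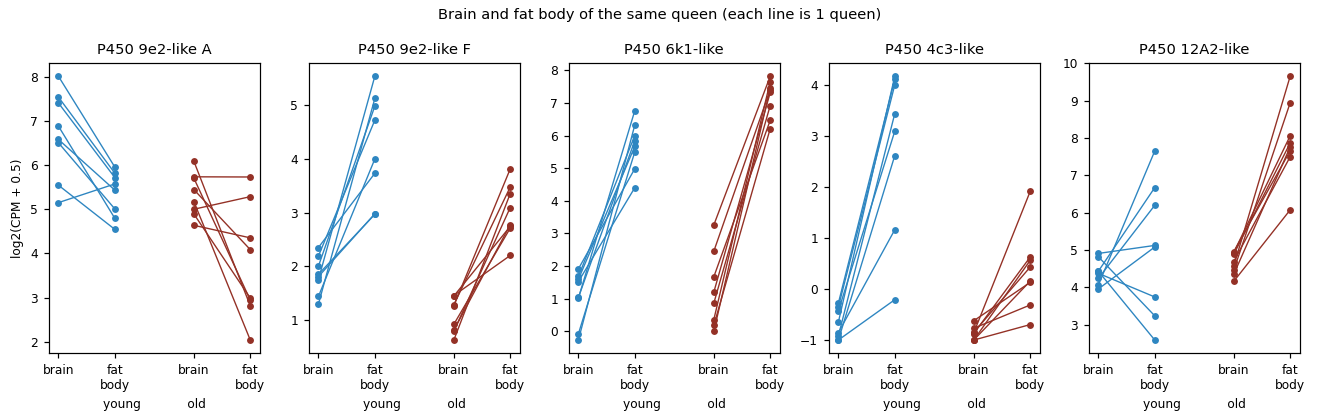
Level in brain and fat body of each queen for 5 P450 contigs, as log2(CPM + 0.5) on the vertical axis; each line joins the 2 tissues of 1 queen, young queens left and old queens right in each panel. All lines rise for 9e2-like F, 6k1-like and 4c3-like, while 12A2-like rises in 8 of 8 old and 5 of 8 young queens.

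The described contigs whose levels most resembled 3 of the P450 contigs over the 32 libraries were listed as a description, by Pearson's r of log2 values. Libraries of 1 tissue share most of their composition, so a tissue difference alone gives a high r. For 6k1-like these were a kunitz-type protease inhibitor (0.98), selenium-binding protein 1-A (0.98) and nucleoside diphosphate-linked moiety X motif 19 (0.98). For 4c3-like they were RNA polymerase II subunit RPB3 (0.89), 40S ribosomal protein S27 (0.87) and a pheromone-binding protein Gp-9-like contig (0.87). For 9e2-like A they were histone H3.3 (0.74), far upstream element-binding protein 1 (0.73) and an uncharacterized protein (0.72).

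P450 enzymes work beside conjugating enzymes and transporters that carry their products onward. Word patterns for such proteins matched 19 described contigs, all of which the authors had listed for age. Every one that could be tested was listed for the fat body, and so needed counts there. Their counts and medians beside those of all contigs are therefore a description. In young queens 9 could be tested, of which 8 were called higher in the fat body than in the brain and none lower. Their median was 1.72 on the log2 scale against -0.27 for all contigs, of which 23.0% were called higher and 34.0% lower. In old queens 10 could be tested, with 7 called higher and 1 lower. Their median was 2.18 against -0.05 for all contigs, of which 26.1% were called higher and 29.7% lower. For the 9 ant matches tested in old queens, 6 were called higher and 1 lower, with a median of 1.43. The 4 with the most counts were carbohydrate sulfotransferase 11-like, which modifies glycans, methylmalonate-semialdehyde dehydrogenase of amino acid breakdown, the mitochondrial transporter ATP-binding cassette B member 10 and ATP-binding cassette G member 1-like, a lipid transporter in mammals. Their differences in young queens were 4.75 ± 0.40, 1.66 ± 0.19, -0.55 ± 0.24 and 2.70 ± 0.35, and in old queens 6.34 ± 0.34, 2.92 ± 0.17, -0.98 ± 0.30 and 4.91 ± 0.28. The transporter B member 10 in young queens did not pass (adjusted p = 0.0635, edgeR), and it was the 1 called lower in old queens (adjusted p = 0.0103). UDP-glucuronosyltransferases 2C1-like and 2B19-like were at 1.72 ± 0.44 and 1.90 ± 0.68 in young queens, both called. In old queens they were at -1.24 ± 0.59 and -1.26 ± 0.74, not called (adjusted p = 0.0868 and 0.164, edgeR). A further one, 3A1-like, was at 1.69 ± 0.36 in young and 1.43 ± 0.36 in old queens, called in both. Several of the matched proteins are not detoxification enzymes, and none was described as a glutathione S-transferase.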

How the data were processed

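Brain and fat body RNA of 16 queens (32 libraries) was used. The authors deposited whole-number counts for contigs of an assembly, per the file headers, and tables of their comparisons with mean normalised signal, log2 fold change, test score and p-value. Tools listed without a role in the submitters' processing notes include RSEM 1.3.0, Trimmomatic 0.36 and DESeq2 1.2.10. RSEM can share reads among similar contigs. No source used here names the assembler. Sequences were not analysed here.

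Counts were tested with edgeR 4.0.16 (R 4.3.3; TMM scaling, minimum count 10, minimum total 15, Benjamini-Hochberg over all contigs tested, threshold 0.05), separately for each pair of groups, and the procedure was tested on simulated data. DESeq2 1.42.0 and the other alternatives are given in the closing section. Intervals and limits from a count of 0 (3 counts) cover counting error only.

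The labels tie the 2 tissues to 1 queen: deviations of the same queen correlated at 0.345 to 0.450 over 31624 contigs, those of other queens at 0.0105 at most, and 16 of 16 brains matched their own fat body best. The contigs and lists were chosen with earlier results of these data known. Each P450 contig is named; the 3 most similar contigs and the 4 most counted list members are named by rule.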

Additional observations from a re-analysis of the deposited data

Results flagged for a closer look

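Of 40 sets of 8 libraries (10 contigs in 4 groups), 2 held a library far from the other 7, and chance alone sets about 1 in 20 apart. 9e2-like C had 1.56 CPM (26 counts) in the young fat body of queen Y-361, against 15.9 to 65.4 CPM in the other young fat bodies. 9e2-like E had 0.107 CPM, from 2 counts, in the old fat body of queen O-482, against 0 in the other old fat bodies. With the other 7 at 0, any count at all would have been flagged, so the rate of 1 in 20 does not apply there.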

How the results depend on the processing

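With relative log expression scaling, none of 26 tested differences of P450 contigs changed its direction or call, and the 10 age values without a test kept their direction. Contigs called for tissue numbered 20026 in young queens (39200 with DESeq2, 51185 without a count filter) and 19300 in old queens (35942 and 38356). For age in the brain 0 were called (623 with DESeq2, 4 with all 32 libraries in 1 fit, 0 to 1 leaving out a queen). For age in the fat body 179 were called (978 with library totals alone, an alternative added after seeing the data, 1234 with DESeq2, 38 without a filter, 824 components, 2135 with all libraries, 40 to 311 leaving out a queen). P450 contigs called for tissue in old queens numbered 5, but 9 with library totals and 8 with all libraries, and for age in the brain 0, but 1 with DESeq2. Summing components turned the tissue difference of 9e2-like D to 0.25 in young and 0.97 in old queens and that of 9e2-like G to 1.12 and 1.06. With the replicate block, 20792 contigs were called in young and 19816 in old queens, and it changed no other P450 call than those named. For these shifts the cause was not tested. Contigs with few counts (4c3-like, 9e2-like E) are limited by depth.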
